A study of Mus musculus with 10 samples.

Results

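Heat shock proteins and other molecular chaperones were followed in RNA of whole brains of newborn mice (postnatal day 0). They were taken as the probe sets whose single gene symbol began with Hspa, Hspb, Hspd, Hspe or Hsph and a digit, with Dnaj, Pdia or Fkbp, or with Cct and a digit from 2 to 8, or was Canx or Calr. This gave 94 of the 12488 probe sets of the Affymetrix MG-U74Av2 array, which stand for 69 of the 8251 genes with such a probe set. A probe set is a set of short probes against 1 transcript or several related ones. The rule itself uses names and no expression value. The 10 arrays fall into 4 groups. XmO animals have 39 chromosomes and a single X, maternal by their name in the labels (replicates 1, 2 and 7), and XX_Paf animals are 40,XX females (replicates 1, 2 and 3). Both come from the cross written C57BL/6J x C3H/Paf. XpO animals have 39 chromosomes and a single paternal X (replicates 15 and 18), and XX_InX animals are 40,XX females (replicates 1 and 19). Both come from the cross written In(X)/C3H x C57BL/6J, in which In(X) names an inverted X. The labels name no treatment, and all 4 groups carry both C57BL/6J and C3H background. The labels do not say whether an array holds 1 animal or a pool, or which animals were littermates, so p-values measure the spread between these samples only. The parental origin of the single X and the direction of the cross change together and cannot be told apart in XmO against XpO. The XX females of each cross also carry the X of the parent that gave none to the XO animals. Within a cross, the number of X chromosomes and the presence of that parent's X therefore cannot be told apart.

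Chaperones bind proteins that are not yet folded and let them reach their native state. HSP70 proteins hold short stretches of an unfolded chain in cycles of ATP hydrolysis that J proteins start, and HSP110 proteins help release the nucleotide. The ring-shaped chaperonins, CCT in the cytosol and HSP60 with its lid HSP10 in mitochondria, enclose whole proteins; actin and tubulin are the best known clients of CCT. Small HSPs keep damaged proteins from aggregating. In the endoplasmic reticulum the HSP70 protein BiP (Hspa5), the sugar-binding chaperones calnexin and calreticulin and the protein disulfide isomerases (PDI) fold secreted and membrane proteins. FKBP proteins are prolyl isomerases, several of which serve as cochaperones of HSP90 or as partners of calcium channels. 2 transcriptional programmes are known to raise many of these genes: heat shock factors acting on the heat shock element (HSE), and the unfolded protein response acting on the endoplasmic reticulum stress element (ERSE).

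Both elements were looked for in the promoters, because these programmes are known to act through them. Promoter sequences from RefSeq (GRCm38.p6) were found for 62 of the 69 genes, and the 250 bases before each annotated start were searched on both strands. The letters CCAAT and CCACG with 9 bases of any kind between them (ERSE) were present in 5 of the 62 genes (8.06%), namely Hspa5, Pdia6, Dnajc3, Canx and Calr, against 35 of all 27025 genes in the promoter table (0.130%). The letters GAA, TTC and GAA, each 2 bases of any kind apart (HSE), were present in 3 of the 62 genes (4.84%), Hspd1, Hspe1 and Dnajb6, against 139 of all 27025 (0.514%). ATTGG and CCACG with 1 base between them (ERSE-II) were in none of the 62 and in 10 of the 27025 (0.0370%). The stretches that hold the matches are printed 5′ to 3′ on the strand of the gene, with the fixed letters of the motif in capitals. They are shown because all 5 ERSE genes belong to the endoplasmic reticulum group described further on. They come from chr2:34771980-34772069, plus strand, for Hspa5, chr12:17266446-17266535, plus strand, for Pdia6, chr14:118937782-118937871, plus strand, for Dnajc3, chr11:50325774-50325863, minus strand, for Canx, and chr8:84847049-84847138, minus strand, for Calr. The Calr match is on the opposite strand, and so reads as the reverse complement.
Hspa5: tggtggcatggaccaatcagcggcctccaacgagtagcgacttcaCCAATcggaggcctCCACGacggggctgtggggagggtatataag
Pdia6: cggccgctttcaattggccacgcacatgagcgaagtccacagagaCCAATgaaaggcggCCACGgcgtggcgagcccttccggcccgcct
Dnajc3: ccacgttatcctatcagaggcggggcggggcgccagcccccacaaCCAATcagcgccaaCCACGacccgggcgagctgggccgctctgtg
Canx: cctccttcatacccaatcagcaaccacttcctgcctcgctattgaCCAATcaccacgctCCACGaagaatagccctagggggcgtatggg
Calr: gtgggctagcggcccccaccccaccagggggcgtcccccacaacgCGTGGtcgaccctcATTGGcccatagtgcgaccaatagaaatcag
The HSE of Hspe1 lies at chr1:55088053-55088082, plus strand, and holds 2 overlapping matches, 1 on each strand. The same 18 bases are the HSE of Hspd1, whose gene runs the other way, so the genes for HSP60 and HSP10 share this stretch of a promoter between them.
Hspe1: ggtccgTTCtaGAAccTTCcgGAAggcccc
A match says only that these letters are there.

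**Figure D1:**
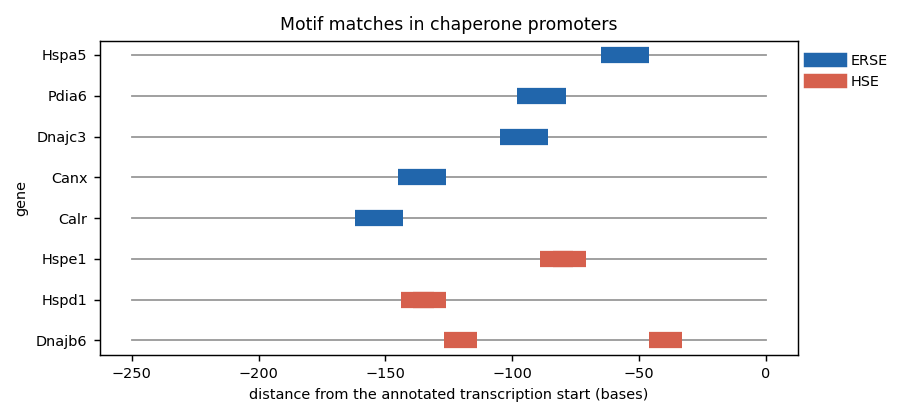
Position of the ERSE (blue) and HSE (red) matches in the 250 bases before the annotated start of the 8 chaperone genes that hold one. The x axis is the distance from the start in bases, and Dnajb6 shows 1 match seen from 2 annotated starts. The 5 ERSE genes all code for proteins of the endoplasmic reticulum, and the matches of Hspe1 and Hspd1 are the same 18 bases read from either gene.

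Of the arrays as a whole, each had a mean intensity of 500.3 after trimming 2% at each end. Xist, the RNA of the inactive X, was at 1673.4 to 4082.1 on the 5 XX arrays and 21.3 to 49.9 on the 5 XO arrays. No detection call was at hand. The brightest of 9 Y-linked probe sets was taken as background on each array, since these animals carry no Y, and lay between 33.6 and 136.6. Of the neuronal markers, which define the labelled tissue, 9 of 10 probe sets were above that background on all 10 arrays, while 4 of 9 oligodendrocyte probe sets were above it on no array. The summed intensity of 5 erythroid probe sets was 11358 to 17367 in XmO and 11740 to 17040 in XX_Paf, but 6047 to 7516 in XpO and 4092 to 6268 in XX_InX. Every array of the Paf cross was above every array of the In(X) cross in this sum, which stands beside each comparison between the crosses. Summed skeletal muscle intensity was 566 to 2913 in XX_Paf and 443 to 724 over the other 7 arrays. In whole tissue, fewer cells of a type and less RNA per cell cannot be told apart.

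Most chaperone genes gave a clear signal in the newborn brain. Of the 94 probe sets, 69 were above the brightest Y-linked probe set on all 10 arrays and 7 on none. The 81 probe sets (63 genes) whose mean log2 intensity reached the 30th percentile of the array were tested. The genes with no tested probe set were Calr, Dnajb8, Fkbp11, Fkbpl, Hspa2 and Hspb1. Over the tested members the highest array exceeded the lowest by a median of 1.68-fold, against 1.71-fold for all 8695 tested probe sets. The FKBP members varied least (median 1.41-fold). None of the 69 genes lies on the X or the Y chromosome, so none changes in copy number between XO and XX animals.

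**Figure D2:**
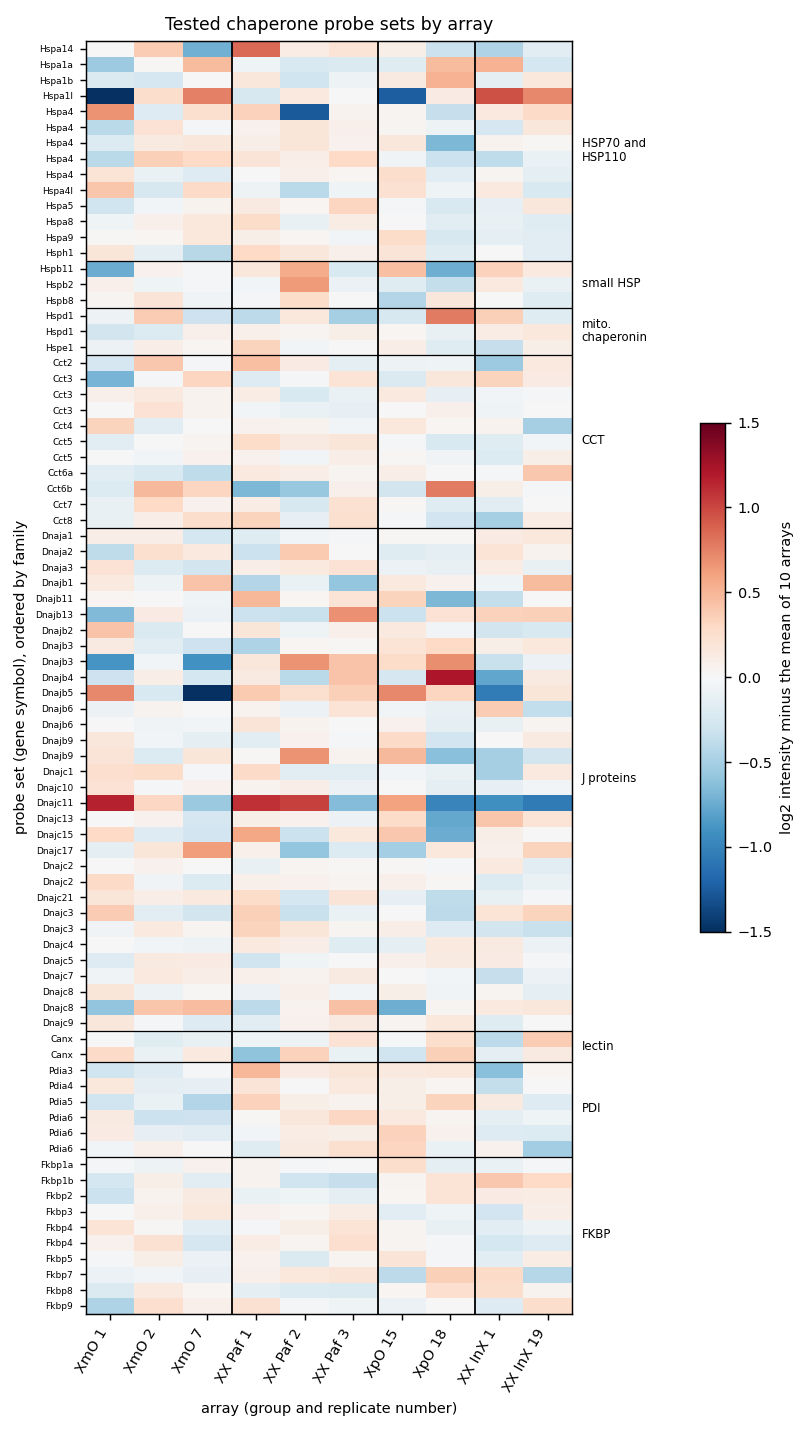
Each of the 81 tested chaperone probe sets (by family from top to bottom, with the gene symbol repeated where a gene has several) on each of the 10 arrays (left to right); colour gives the log2 intensity minus the mean of the 10 arrays, from -1.5 (blue) to 1.5 (red). Most cells are pale, and the strongest colours differ among arrays of 1 group, as for Hspa1l, Dnajb5 and Dnajc11.

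The constitutive members of the HSP70 family come first. Values are given in the order of the replicates named above, and groups are said to overlap where this holds for the 4 pairs compared (XmO and XX_Paf, XpO and XX_InX, XmO and XpO, XX_Paf and XX_InX). Hspa8, the constitutive cytosolic HSP70 (HSC70), had intensities of 4958.5, 5429.4 and 5785 in XmO, 6253.2, 4794 and 5567.1 in XX_Paf, 5211.6 and 4613.8 in XpO, and 4799.3 and 4556.4 in XX_InX. The groups overlapped, and both XX_InX arrays were among the 4 lowest. Hspa5 (BiP) stood at 1962, 2331.7 and 2502.2 in XmO, 2636.4, 2456.3 and 3016.1 in XX_Paf, 2354.9 and 2046.2 in XpO, and 2213.6 and 2710.4 in XX_InX. The 3 XX_Paf arrays were among the 5 highest. Hsph1, the HSP110 nucleotide exchange factor, was at 2091.2, 1671 and 1378.6 in XmO, 2261.8, 2079.4 and 1942.1 in XX_Paf, 2113.2 and 1621.5 in XpO, and 1846.9 and 1640.5 in XX_InX. All 3 XX_Paf arrays were above both XX_InX arrays, and the other pairs overlapped.

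The stress-inducible genes were measured as well. Hspa1a and Hspa1b, nearly identical copies whose RNA the probes may not separate, were at 414 ± 142 (XmO), 357 ± 24.4 (XX_Paf), 457 ± 144 (XpO) and 456 ± 170.1 (XX_InX) for Hspa1a, and at 107 ± 9.86 (XmO), 115 ± 18.4 (XX_Paf), 151 ± 28.9 (XpO) and 121 ± 17.9 (XX_InX) for Hspa1b (mean ± SD, n = 3, 3, 2 and 2 arrays in this order throughout). The groups of Hspa1a overlapped; those of Hspa1b did not for XmO and XpO, where both XpO arrays were higher, and did for the other pairs; the Hspa1b value of XmO 7, 118.4, lay below that array's brightest Y-linked probe set (136.6). Hspb1 (HSP27), the small HSP most known for its stress response, did not exceed the brightest Y-linked probe set on any array. Its values of 18.6 to 81.2 therefore give no order of the groups. Hspb8, which works with BAG3 in clearing misfolded proteins, was at 432 ± 37.1 (XmO), 440.4 ± 51.9 (XX_Paf), 384 ± 111 (XpO) and 389.6 ± 34.3 (XX_InX) on its tested probe set, with overlapping groups.

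Among the chaperonins, Hspd1 (HSP60) had 5173.3, 5430.6 and 6633.7 in XmO, 6606.4, 6471.1 and 6690 in XX_Paf, 6404.8 and 5830.3 in XpO, and 6782.4 and 6991.4 in XX_InX. Within the In(X) cross both XpO arrays were below both XX_InX arrays, while in the Paf cross XmO 7 overlapped XX_Paf. Its lid Hspe1 (HSP10) had 1638.4, 1865 and 1782.2 in XmO, 2200.5, 1699.8 and 1757 in XX_Paf, 1869.1 and 1535.4 in XpO, and 1376.4 and 1850.9 in XX_InX. The groups of Hspe1 overlapped. Cct2, 1 of the 8 subunit types of the CCT ring, had 345.9, 543.5 and 402.4 in XmO, 560.7, 448.5 and 371.6 in XX_Paf, 389.7 and 393.9 in XpO, and 281.4 and 455.3 in XX_InX. XX_InX 1 was the lowest array, and the groups overlapped.

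The J proteins are the partners that choose a client for HSP70. Dnaja1, an abundant cytosolic HSP40 of class A, was at 7290, 7305.5 and 5665.5 in XmO, 5987.3, 6621.9 and 6750.1 in XX_Paf, 6909.8 and 6900.3 in XpO, and 7413.3 and 7599.8 in XX_InX. Both XX_InX arrays were above the other 8 arrays. Dnajb1, the stress-inducible HSP40, had 486.5, 418.4 and 592.4 in XmO, 323.8, 411.9 and 295.5 in XX_Paf, 486.9 and 461.2 in XpO, and 422.5 and 613.6 in XX_InX. All 3 XX_Paf arrays were below every array of the other groups, which overlapped among themselves. Dnajc3 (p58IPK), a J protein of the endoplasmic reticulum, had on its tested probe set 94343_at 311.6, 356.8 and 332 in XmO, 405.7, 366.9 and 330.5 in XX_Paf, 346.6 and 280.8 in XpO, and 266.5 and 256 in XX_InX. Both XX_InX arrays were below the other 8. Its other tested probe set, 102414_i_at, was at 138 ± 35.0 (XmO), 138 ± 34.6 (XX_Paf), 121 ± 23.7 (XpO) and 165 ± 10.6 (XX_InX), and the remaining probe sets, 102415_r_at and 161868_r_at, were too dim to be tested.

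In the endoplasmic reticulum, calnexin (Canx) was at 762.6, 581.5 and 693.9 in XmO, 411.3, 792 and 581.7 in XX_Paf, 508.7 and 799.6 in XpO, and 563.6 and 685.6 in XX_InX on 94886_at. Its second probe set, 160180_at, was at 243 ± 15.02 (XmO), 267 ± 31.4 (XX_Paf), 284 ± 40.5 (XpO) and 269 ± 100.4 (XX_InX), and the groups overlapped on both. The calreticulin (Calr) probe set was at 6.2 to 34.9 and above the brightest Y-linked probe set on no array, so Calr could not be followed. Pdia3 (ERp57), the PDI that works with calnexin and calreticulin on glycoproteins, had 873.1, 935.7 and 1064 in XmO, 1512.9, 1168.2 and 1220.2 in XX_Paf, 1186.4 and 1196 in XpO, and 695.8 and 1094.1 in XX_InX. Every XmO array was below every XX_Paf array, and both XpO arrays were above both XX_InX arrays. Pdia4 (ERp72) had 727.6, 588.9 and 597.7 in XmO, 742.2, 647.8 and 721.3 in XX_Paf, 691 and 664.3 in XpO, and 507.7 and 650.8 in XX_InX. XmO 1 lay among XX_Paf, and both XpO arrays were above both XX_InX arrays.

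Of the prolyl isomerases, Fkbp1a (FKBP12), the target of FK506 and rapamycin and a partner of ryanodine and TGF-beta receptors, was at 5060.5, 4882.1 and 5353.1 in XmO, 5310.2, 5089.3 and 5142.9 in XX_Paf, 6167.8 and 4621.3 in XpO, and 4791.3 and 5054.8 in XX_InX. XpO 15 was the highest array, and the other 9 lay between 4621.3 and 5353.1. The HSP90 cochaperone Fkbp4 (FKBP52) was at 3043, 2662.1 and 2344.1 in XmO, 2589.7, 2805.1 and 3036.6 in XX_Paf, 2712.4 and 2451.2 in XpO, and 2337.1 and 2507 in XX_InX on 92808_f_at. Its probe set 92809_r_at was at 956 ± 159 (XmO), 1034 ± 80.0 (XX_Paf), 943 ± 31.0 (XpO) and 801 ± 25.0 (XX_InX). On both probe sets the 3 XX_Paf arrays were above both XX_InX arrays. Fkbp5 (FKBP51), a cochaperone of steroid receptors that glucocorticoids induce, was at 1004.1, 1083.2 and 959.1 in XmO, 1070.5, 879.1 and 1046.2 in XX_Paf, 1169.7 and 1010.7 in XpO, and 912.4 and 1103.7 in XX_InX. The groups of Fkbp5 overlapped, with a highest-to-lowest ratio of 1.33.

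The first comparison asked which chaperones differ between animals with 1 and with 2 X chromosomes, with equal weight for each cross. No chaperone passed. By limma 0 of the 81 tested probe sets were called at an adjusted p under 0.05, where 0.0115% of all 8695 were, and the smallest adjusted p was 0.9995. At an unadjusted p under 0.05 there were 2 (2.47%), against 2.60% of all probe sets. The median log2 fold change of the members was 0.01, against 0.00 over all tested probe sets, with 43 higher and 38 lower estimates in XO. This order of the counts turned when single arrays were left out: 39 were higher and 42 lower without XmO 7 or without XX_Paf 2, 37 and 44 without XpO 15, and 38 and 43 without XX_InX 1. The 95% interval of the fold change (limma, not adjusted for the number of probe sets) stayed within 2-fold either way for 79 of the 81, against 91.7% of all probe sets; the exceptions were Hspa1l and Dnajc11. The median half-width of the interval was 0.31 on the log2 scale.

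By family, the estimates in XO fell on both sides of 0. Among the HSP70 and HSP110 probe sets 7 were higher and 7 lower, among J proteins 17 and 15, among CCT subunits 7 and 4, among FKBP 6 and 4, and among PDI 4 and 2. The HSP70 and HSP110 counts were 3 and 11 (median -0.09) without XpO 15, and 8 and 6 without XpO 18. Those of PDI were 2 and 4 without XX_InX 1. The J protein counts were 15 and 17 without XpO 15 and 16 each without XmO 1 or XX_InX 1. The CCT counts were 5 and 6 without XmO 2, XX_Paf 2 or XpO 15, and 4 and 7 without XX_InX 1. All 3 tested small HSP probe sets had lower estimates in XO (median -0.24), but 1 was higher and 2 lower without XX_Paf 2, XpO 15 or XX_InX 1, and the median was -0.12 without XX_Paf 2. They are Hspb11, which despite its name is the intraflagellar transport protein IFT25 (-0.40), Hspb2 (-0.24) and Hspb8 (-0.04), and none passed. The 2 members at an unadjusted p under 0.05 were Hspd1 (log2 fold change -0.19, SE 0.08, limma adjusted p = 0.9995; 95% interval -0.37 to -0.01) and 1 probe set of the CCT subunit gene Cct6a (log2 fold change -0.25, SE 0.10, limma adjusted p = 0.9995). The second Hspd1 probe set, 161140_r_at, had 0.21. Only Cct3 kept its groups apart in the same direction in both crosses, on its probe set 98446_s_at, and 1.23% of members against 0.357% of all tested probe sets did so in the higher direction. Cct3 had 2263.5, 2655.9 and 2361.8 in XmO, 2215.4, 2123.8 and 2092.4 in XX_Paf, 2283 and 2408.7 in XpO, and 2173.1 and 2268.2 in XX_InX (log2 fold change 0.13, SE 0.08, limma adjusted p = 0.9995). Its other probe sets had estimates of 0.10 and -0.19. In the lower direction 0 members kept their groups apart in both crosses, against 0.495% of all tested probe sets.

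In the Paf cross, XmO animals, which lack the paternal X, were compared with XX_Paf females. The chaperones leaned to lower estimates in XmO, with 51 lower and 30 higher and a median log2 fold change of -0.06, against 0.00 for all probe sets. Without XmO 1 or without XX_Paf 3 the counts were 47 lower and 34 higher, with medians of -0.02 and -0.03. None passed: limma called 0 of 81, where 0.0230% of all probe sets passed. An unadjusted p under 0.05 was reached by 4 members (4.94%) and by 5.53% of all. With groups that did not overlap, 7 members were lower in XmO (8.64%, against 6.97% of all probe sets) and 2 higher (2.47%, against 6.96%). The 95% interval stayed within 2-fold for 72 of the 81. By family, estimates were higher for 4 and lower for 10 of the HSP70 and HSP110 probe sets, 14 and 18 of the J proteins, 5 and 6 of the CCT subunits, and 5 and 5 of the FKBP members. Several of these turned when 1 array was left out. Without XmO 1, HSP70 and HSP110 had 8 higher and 6 lower (median 0.04), CCT 7 and 4, and FKBP 6 and 4. Without XX_Paf 1, CCT and FKBP had the same counts as without XmO 1, and without XmO 7 or XX_Paf 3 the J proteins had 17 higher and 15 lower.

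The named members of this comparison came from several families. The inducible J protein Dnajb1 had the higher estimate, at 499 ± 87.7 (XmO) and 344 ± 60.7 (XX_Paf) (3 arrays each; log2 fold change 0.54, SE 0.19, limma adjusted p = 0.877; 95% interval 0.12 to 0.96). The CCT subunit gene Cct3 had 0.18 on 98446_s_at (0.11 without XmO 2), and Cct6a, a subunit of the same ring, had a lower estimate. Cct6a was at 895.1, 855.1 and 770.6 in XmO, 1102.7, 1072.8 and 1025.9 in XX_Paf, 1070.9 and 996.9 in XpO, and 986.2 and 1325.5 in XX_InX on 162279_f_at (log2 fold change -0.35, SE 0.13, limma adjusted p = 0.877). All 3 XmO arrays lay below the other 7. Its second probe set, 160459_r_at, was at background on all arrays. Pdia3 was at 958 ± 97.3 (XmO) and 1300.4 ± 186 (XX_Paf) (3 arrays each; log2 fold change -0.44, SE 0.17, limma adjusted p = 0.877; 95% interval -0.80 to -0.07). Dnajb3, a J protein known mainly from testis, had on 97481_r_at 57.5, 103.4 and 56.4 in XmO, 119.7, 169.5 and 142.7 in XX_Paf, 128.1 and 172.3 in XpO, and 83.8 and 100.1 in XX_InX (log2 fold change -1.04, SE 0.33, limma adjusted p = 0.877). The signal of this probe set was weak: 2 of the 3 XmO arrays and 1 of the 2 XX_InX arrays lay under the background set by the Y-linked probe sets, and the suffix r marks a probe set chosen with some design rules dropped. The second Dnajb3 probe set, 97480_f_at, had 0.03.

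In the In(X) cross, XpO animals, which lack the maternal X, were set against XX_InX females. Here more chaperones had higher estimates in XO, 49 against 32, with a median of 0.04, against -0.01 for all probe sets. This turned to 38 higher and 43 lower (median -0.02) without XpO 15, and was 50 and 31 (median 0.10) without XpO 18. Limma called 0 of the 81, where 0.0115% of all probe sets passed. An unadjusted p under 0.05 was reached by 2 (2.47%) and by 3.38% of all. With 2 arrays a group, groups that do not overlap are common: 14 members were higher in XpO in this sense (17.3%, against 11.3% of all probe sets) and 11 lower (13.6%, against 12.1%). The 95% interval stayed within 2-fold for 63 of the 81. By family, estimates were higher for 10 and lower for 4 of the HSP70 and HSP110 probe sets, 17 and 15 of the J proteins, 7 and 4 of the CCT subunits, and 5 and 5 of the FKBP members. Without XpO 15, HSP70 and HSP110 had 2 higher and 12 lower (median -0.08), the J proteins 14 and 18, and CCT 5 and 6. CCT had 4 and 7 without XX_InX 1, and FKBP 4 and 6 without XpO 18.

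Both members at an unadjusted p under 0.05 were PDI genes. Pdia6 (P5) had on 94208_at 1191, 1006.5 and 977.6 in XmO, 1065.3, 1178.4 and 1166.1 in XX_Paf, 1386.2 and 1142 in XpO, and 955.7 and 946.3 in XX_InX, with both XpO arrays above both XX_InX arrays (log2 fold change 0.40, SE 0.15, limma adjusted p = 0.9998; 95% interval 0.07 to 0.74). This estimate was 0.26 without XpO 15. Pdia3 was at 1191 ± 6.79 (XpO) and 895 ± 282 (XX_InX) (2 arrays each; log2 fold change 0.45, SE 0.21, limma adjusted p = 0.9998). Its estimate was 0.12 without XX_InX 1 and 0.78 without XX_InX 19. Dnajb3 on 97481_r_at had 0.70, and on 97480_f_at 0.14. On the lower side, Hspa1l, a testis-type HSP70 next to Hspa1a and Hspa1b, was at 33.1, 112.6 and 158.3 in XmO, 79.2, 103.3 and 93.6 in XX_Paf, 39.9 and 102.4 in XpO, and 182.1 and 154.4 in XX_InX (log2 fold change -1.39, SE 0.65, limma adjusted p = 0.9998). The spread within groups was wide, with XmO from 33.1 to 158.3, where XmO 1 lay below that array's brightest Y-linked probe set (67.7). The estimate was -2.07 without XpO 18 and -0.71 without XpO 15 in the fit. Dnajc8, a J protein of the splicing machinery, had -0.51 on 95700_r_at but 0.07 on 95699_f_at; the former was -0.12 without XpO 15 and -0.89 without XpO 18. Fkbp1b (FKBP12.6), a partner of the ryanodine receptor, was at 1779.5 ± 142 (XpO) and 2092 ± 106 (XX_InX) (log2 fold change -0.24, SE 0.17, limma adjusted p = 0.9998), and its estimate was -0.15 without XpO 15.

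**Figure D3:**
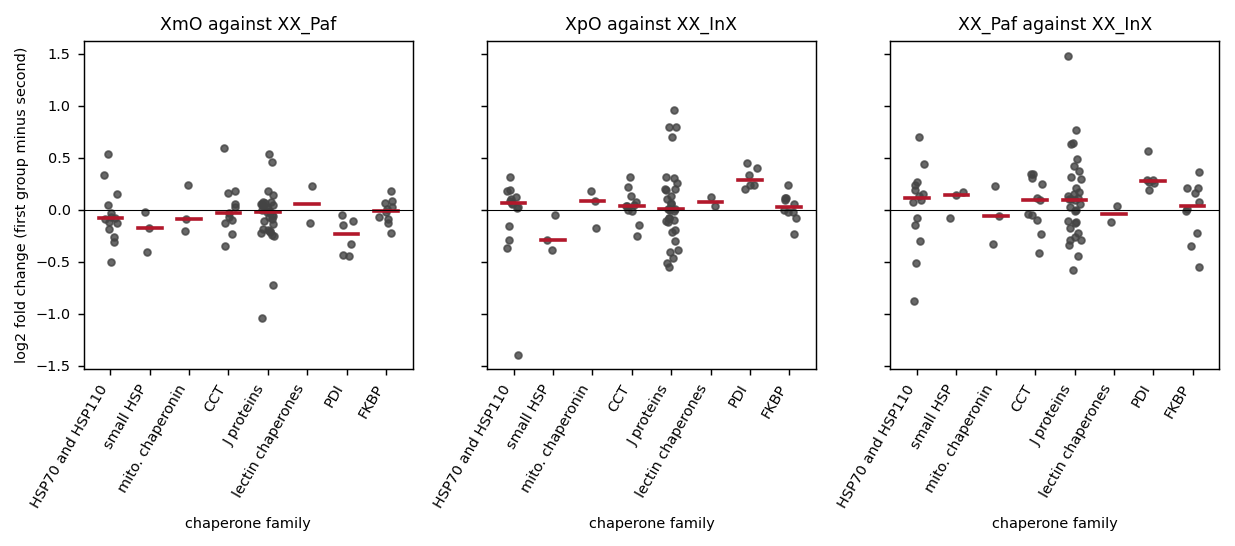
Log2 fold changes of the 81 tested chaperone probe sets (points) in 8 families for 3 comparisons; red bars are family medians, and the y axis is the first group minus the second. All 6 PDI probe sets lie below 0 in XmO against XX_Paf and above 0 in XpO against XX_InX and in XX_Paf against XX_InX, and XX_Paf and XX_InX each enter 2 of the 3 panels.

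Of the 8 families, only PDI had estimates that all pointed the same way within each cross and opposite ways in the 2 crosses. It was singled out from these same estimates. The families hold 2 to 32 tested probe sets, and signs agree more easily in a small family. The 3 small HSP probe sets had lower estimates in XO in both crosses. That small HSP count did not hold without some single arrays: in the Paf cross it was 2 higher and 1 lower (median 0.06, from -0.18) without XX_Paf 2 and 1 and 2 without XmO 7, and in the In(X) cross 1 and 2 without XpO 15, XpO 18 or XX_InX 1. All 6 PDI probe sets, of 4 genes, had lower estimates in XmO than in XX_Paf (median -0.24). The same 6 had higher estimates in XpO than in XX_InX (median 0.28). The 2 comparisons share no array. No PDI probe set passed in either (limma, smallest adjusted p 0.877 and 0.99975). The 3 Pdia6 probe sets read the same gene and are not independent. All 6 PDI probe sets are read on the same arrays, so their signs are not separate evidence. The count in the Paf cross was 5 of 6 without XX_Paf 3 and 6 of 6 without any other single array. With the replicate number as a block it was 5 of 6. That fit gives XmO 7 and XX_Paf 3 no weight and so compares replicates 1 and 2 alone. In the In(X) cross it was 6 of 6 without any single array. The genes differed in size: in the Paf cross the estimates were -0.44 for Pdia3, -0.44 for Pdia5, -0.15 for Pdia4 and -0.33, -0.11 and -0.05 for Pdia6. In the In(X) cross they were 0.45 for Pdia3, 0.24 for Pdia5, 0.24 for Pdia4 and 0.20, 0.40 and 0.33 for Pdia6. The probe set of Pdia5 (PDIR) lay near background, at 116 ± 13.8 (XmO), 157 ± 18.5 (XX_Paf), 163 ± 19.4 (XpO) and 138 ± 22.3 (XX_InX), with XmO 7 (103.4) below that array's brightest Y-linked probe set (136.6). The ranges of summed erythroid intensity overlapped within each cross, as given above, and their part in these values was not tested.

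**Figure D4:**
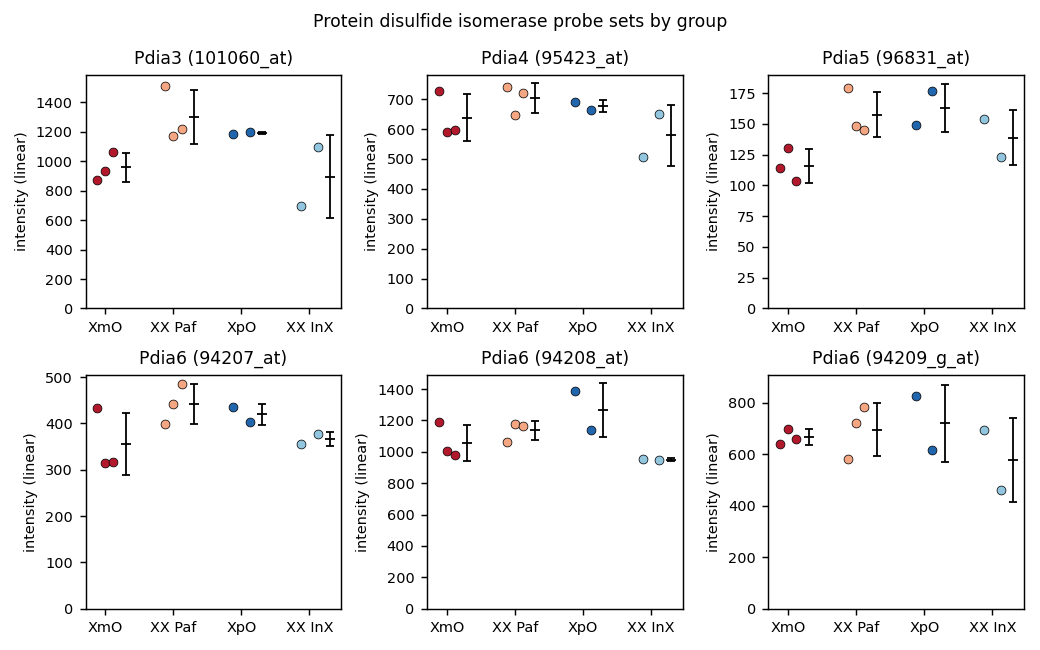
Intensity (linear scale, from 0) of the 6 PDI probe sets on each array, by group, with the mean and SD in black beside the points (n = 3, 3, 2 and 2). For Pdia3 the XmO points (873.1 to 1064) lie below the XX_Paf points (1168.2 to 1512.9), and the XpO points (1186.4 and 1196) above the XX_InX points (695.8 and 1094.1).

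The difference of the monosomy effects between the crosses was tested directly. Limma called 0 of the 81 chaperones, where 0.0230% of all probe sets passed. The 95% interval stayed within 2-fold for 51 of the 81 (63.0%, against 56.8% of all probe sets), the fewest of the 6 comparisons. Its median half-width was 0.61 on the log2 scale. An unadjusted p under 0.05 was found for 5 (6.17%), against 5.91% of all. Named after their values were seen, these 5 were Pdia3, Pdia6 on 94208_at (-0.51), Dnajb3 on 97481_r_at, Dnajb5 (-1.68) and Dnajc17 (0.85). Dnajb5, an HSP40 of class B, spread widely within groups, from 52.4 to 274.6 in XmO, where XmO 7 was below that array's brightest Y-linked probe set (136.6). 2 members had groups apart in both crosses and in opposite directions, lower in the Paf cross (2.47%, against 1.13% of all probe sets), and 0 did so the other way (against 0.897%). These were Pdia3, with a difference of -0.89 (SE 0.27, limma adjusted p = 0.832; 95% interval -1.46 to -0.31), and Dnajb3 on 97481_r_at, with -1.73 (SE 0.52, limma adjusted p = 0.832). The Pdia3 difference was -0.56 without XX_InX 1 and -1.21 without XX_InX 19, and its limma adjusted p ran from 0.228 to 0.9998 over the settings tried. All 6 PDI probe sets had a lower estimate in the Paf cross here as well, which follows from their signs within the crosses.

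The wider endoplasmic reticulum group was then described, with 16 genes put together from textbook location after the PDI values were seen. It holds Hspa5, Dnajb9, Dnajb11, Dnajc1, Dnajc3, Dnajc10, the 4 PDI genes, Canx, Calr, Fkbp2, Fkbp7, Fkbp9 and Fkbp11. Of its 19 tested probe sets 13 had lower estimates in XmO than in XX_Paf (median -0.13), and 14 had higher estimates in XpO than in XX_InX (median 0.11; 10 of 19 and median 0.01 without XX_InX 1). None passed by limma. An unadjusted p under 0.05 was found for 1 in the first comparison (5.26%, against 5.53% of all probe sets) and 2 in the second (10.5%, against 3.38%), and all 3 are PDI probe sets, whose values prompted the group. The PDI probe sets are 6 of these 19. Of the other 13, 7 had lower estimates in XmO and 8 had higher estimates in XpO (6 without XpO 15 or XpO 18, 4 without XX_InX 1), and 0 had an unadjusted p under 0.05 in either comparison. Hspa5 had an estimate of -0.26 in XmO against XX_Paf, lower as the PDI probe sets were (median -0.24). In XpO against XX_InX it had -0.16, where the PDI median was 0.28. The Hspa5 groups overlapped in both comparisons. Dnajb11 (ERdj3), a J protein that works with BiP, had -0.25 and 0.01. Dnajc10 (ERdj5), a J protein with PDI-like reductase activity, had 0.07 and 0.01. Among the genes with an ERSE in the printed stretches, 6 of the 8 tested probe sets were lower in XmO than in XX_Paf and 6 were higher in XpO than in XX_InX (4 without XpO 18 or XX_InX 1). 3 of these 8 are the Pdia6 probe sets, and of the other 5 (Hspa5, Dnajc3 and Canx) 3 were lower in XmO and 3 higher in XpO. Pdia3 and Pdia4 had no such match in the searched window, which says nothing about how they are controlled.

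The animals with a single X were then set against each other, XmO against XpO, which asks about the parent that gave the X together with the direction of the cross. No chaperone passed, with 45 higher and 36 lower estimates in XmO and a median of 0.01, against 0.00 over all probe sets. The counts turned to 32 higher and 49 lower (median -0.05) without XpO 18, and were 49 and 32 (median 0.06) without XpO 15. Limma called 0 of the 81, where 0.0115% of all probe sets passed. An unadjusted p under 0.05 was found for 1 (1.23%), against 4.83% of all. Groups did not overlap for 4 members higher in XmO (4.94%, against 8.59% of all) and 6 lower (7.41%, against 8.83%). The 95% interval stayed within 2-fold for 70 of the 81. Dnajb3 on 97481_r_at had the smallest p (log2 fold change -1.10, SE 0.36, limma adjusted p = 0.780), with 97480_f_at at -0.37. Cct6a had -0.30 and Pdia5 -0.49. Higher estimates in XmO were those of Dnajc21, a J protein of ribosome assembly (0.40), the nuclear prolyl isomerase Fkbp3 (0.19) and the small HSP Hspb2 (0.26; 0.17 without XpO 18). Dnajc21 was at 162.6, 153 and 159 in XmO, 173.3, 119.3 and 163 in XX_Paf, 131 and 109.8 in XpO, and 133 and 141.3 in XX_InX. XmO was above XpO, XX_Paf ran across both, and XX_InX lay between them. The PDI probe sets all had lower estimates in XmO than in XpO (median -0.26; 5 of 6 and -0.16 without XpO 15), and this comparison shares its arrays with the preceding ones. The erythroid sum did not overlap between these groups, as given above, and its part in the values was not tested.

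The females with both X chromosomes were compared between the crosses, XX_Paf against XX_InX. It had the most chaperones with groups apart among the 6 comparisons, as it did over all probe sets, and none passed. Limma called 0 of the 81, where 0.0805% of all probe sets passed. An unadjusted p under 0.05 was found for 8 (9.88%), which is below the 13.8% of all probe sets. The median log2 fold change of the members was 0.10, against -0.02 for all, with 50 higher and 31 lower estimates in XX_Paf (46 and 35, median 0.04, without XX_InX 1). Groups did not overlap for 21 members higher in XX_Paf (25.9%, against 17.6% of all) and 10 lower (12.3%, against 19.5%). The 95% interval stayed within 2-fold for 68 of the 81. The smallest adjusted p of all chaperone tests was that of Fkbp1b, with 1357.5, 1738 and 1457.5 in XmO, 1690.1, 1327.9 and 1286.8 in XX_Paf, 1679 and 1880.1 in XpO, and 2167.6 and 2017.4 in XX_InX (log2 fold change -0.55, SE 0.15, limma adjusted p = 0.185; 95% interval -0.88 to -0.23). Both XX_InX arrays were above the other 8.

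Other members of this comparison lay on both sides. Higher estimates in XX_Paf were those of Pdia3 (log2 fold change 0.57, SE 0.19, limma adjusted p = 0.229), Dnajc3 on 94343_at (0.49; other tested probe set -0.29) and Dnajc7 (0.30). Pdia3's estimate was 0.24 without XX_InX 1 and 0.89 without XX_InX 19, and that of Dnajc7 was 0.17 without XX_InX 1. Dnajc7 (TPR2), a cochaperone that hands clients between HSP70 and HSP90, had 2371.1, 2722.7 and 2629.6 in XmO, 2585.7, 2539.4 and 2689.8 in XX_Paf, 2466.2 and 2390.3 in XpO, and 1932.2 and 2317.9 in XX_InX. Both XX_InX arrays were below the other 8. Lower estimates were those of Dnajb1 (log2 fold change -0.58, SE 0.22, limma adjusted p = 0.283) and Fkbp8 (-0.35). The Dnajb1 estimate was -0.31 without XX_InX 19. Fkbp8 (FKBP38), an outer mitochondrial membrane protein that binds BCL2, had 2383.2, 3067.6 and 2817.5 in XmO, 2500.6, 2396.1 and 2382.3 in XX_Paf, 2813.6 and 3288.6 in XpO, and 3319.1 and 2873.9 in XX_InX. The 3 XX_Paf arrays spread little and lay below both XX_InX arrays, and XmO 1 lay with XX_Paf. Dnajb1 and Fkbp8 overlapped between XmO and XpO, the XO groups of the same crosses. All 6 PDI probe sets were higher in XX_Paf (median 0.28; 5 of 6 without XX_InX 19), and the XX arrays also enter the comparisons within the crosses. The erythroid sum was higher on every XX_Paf array, with 1 erythroid probe set called by limma, and its part in these values was not tested.

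**Figure D5:**
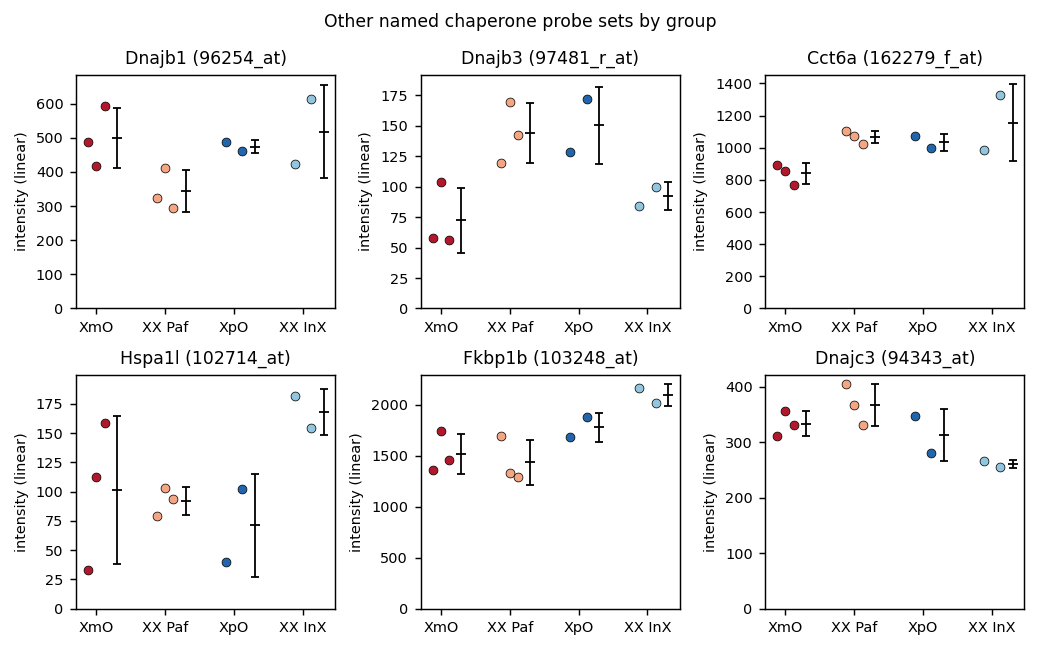
Intensity (linear scale, from 0) of 6 further named probe sets on each array, by group, with the mean and SD in black (n = 3, 3, 2 and 2). Dnajb1 is lowest in XX_Paf (295.5 to 411.9), Fkbp1b highest in XX_InX (2017.4 and 2167.6), and Hspa1l spreads from 33.1 to 158.3 within XmO.

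Probe sets of one gene often disagreed in sign, which limits how far a single estimate can be read. Of the 13 genes with several tested probe sets, all probe sets had the same sign for 3 in XO against XX, 5 in XmO against XX_Paf, 6 in XpO against XX_InX and 9 in XmO against XpO. Hspa4, an HSP110-type gene of the HSP70 family with 5 tested probe sets, was mixed in every one of the 6 comparisons. Its estimates in XO against XX were 0.02, -0.08, -0.03, -0.18 and 0.08. Pdia6 had the same sign on its 3 probe sets in both comparisons within a cross, but mixed signs in XO against XX. PDI was singled out by its agreement within the crosses, so that of Pdia6 there is not separate evidence.

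Genes that work beside these chaperones were counted from lists of each pathway. Of HSP90, its cochaperones and related folding factors, 36 probe sets (26 genes) were tested, and limma called 0 in any of the 6 comparisons, with medians of -0.05 to 0.02. At an unadjusted p under 0.05 there were 0 in XO against XX, 1 in XmO against XX_Paf, 0 in XpO against XX_InX, 1 in XmO against XpO, 0 in the difference and 5 in XX_Paf against XX_InX. The 5 are 13.9% of the list, where 13.8% of all probe sets had such a p. Of 13 tested probe sets of heat shock factor targets (11 genes, most of them members described above) 0 were called, with 5 higher and 8 lower in XmO against XX_Paf and 9 higher and 4 lower in XpO against XX_InX. In any 1 comparison at most 1 of these had an unadjusted p under 0.05. Of the glucocorticoid response list, which holds Fkbp5, 0 of 9 tested probe sets were called by limma in any comparison, and 2 in XmO against XpO (22.2%, against 4.83% of all probe sets) and 1 in XX_Paf against XX_InX (11.1%, against 13.8%) had an unadjusted p under 0.05. Of the unfolded protein response list 0 of 20 tested probe sets (16 genes) were called by limma in any comparison. At an unadjusted p under 0.05 this list had 1 in XO against XX (5%, against 2.60% of all probe sets), 2 in XmO against XX_Paf (10%, against 5.53%) and 1 in XpO against XX_InX (5%, against 3.38%). It had 3 in XmO against XpO (15%, against 4.83%), 4 in the difference (20%, against 5.91%) and 2 in XX_Paf against XX_InX (10%, against 13.8%). Its estimates were 10 higher and 10 lower in each comparison within a cross. In the difference 11 were higher and 9 lower, and of those at that p 3 were higher and 1 lower. 2 of its genes were chosen after their values were seen, because their estimates ran against those of the PDI genes in the Paf cross. They do not describe the list, whose estimates in that cross were 10 higher and 10 lower. Ppp1r15a (GADD34), which directs dephosphorylation of eIF2 alpha, had 0.40 in XmO against XX_Paf and -0.53 in XpO against XX_InX (difference 0.93, SE 0.27, limma adjusted p = 0.832). Ddit3 (CHOP), a transcription factor of the same branch, had 1.44 in XmO against XX_Paf (SE 0.46, limma adjusted p = 0.877). The Ddit3 estimate in the In(X) cross is not reported here, so no contrast between the crosses is drawn from it.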

How the data were processed

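RNA of whole brains was hybridised to 10 Affymetrix MG-U74Av2 arrays. The authors deposited linear intensities, 1 value for each probe set on each array, already scaled to a common trimmed mean. The software that made these values is not given in the sources used here, and no detection call was used. Gene symbols came from GEO's platform annotation, where 10833 probe sets had 1 symbol, 396 several and 1193 none, beside 66 control probe sets. Of these, 10817 were matched to a RefSeq gene table (GRCm38.p6).

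Intensities were raised to a floor of 15.09 (their 10th percentile) and taken to log2, with no further scaling. Probe sets whose mean lay under the 30th percentile, and control probe sets, were left out, which left 8695. They were fitted with limma 3.58.1 in R 4.3.3 (1 model of 4 groups, 6 residual degrees of freedom, intensity trend) and adjusted by Benjamini-Hochberg over all 8695 within each of 6 comparisons, at an adjusted p of 0.05. XO against XX is the mean of the comparisons within the 2 crosses. The script was tested on simulated data. The members and lists were chosen with earlier results of these data known. The members planned to be named were those with the smallest p among members whose groups did not overlap, up to 3 in each direction. For each family 1 to 3 genes were planned as well. Further members were named for other reasons, such as an unadjusted p under 0.05, their family or their location, some after their values were seen. Groups are called not overlapping when every array of 1 group lies above every array of the other. Other floors, filters, scalings and fits, and leaving out each array, were tried; for the endoplasmic reticulum and ERSE groups this was added after their values were seen.

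Replicate numbers 1 and 2 are shared by XmO and XX_Paf. Deviations of same-numbered arrays from their group means had correlations of -0.0123 and -0.0415 over probe sets, so the numbers were not taken to pair the arrays. The number of arrays limits the precision.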

Additional observations from a re-analysis of the deposited data

Results flagged for a closer look

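For 2 chaperone probe sets every XO array of one cross lay below, and every XO array of the other above, the XX arrays of its own cross. Both were lower in the Paf cross, which makes 2.47% of members, against 1.13% of all tested probe sets. In the other direction 0 members did so, against 0.897% of all. Pdia3 had a log2 difference of the effects between the crosses of -0.89, and Dnajb3 on 97481_r_at had -1.73. The signal of that Dnajb3 probe set was weak and on some arrays under background, as given above. The difference itself was tested with limma and did not pass (adjusted p = 0.832 for both).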

How the results depend on the processing

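Of the chaperones 0 were called (limma) under any alternative in any of the 6 comparisons. The 466 repeats of named members kept their side of the threshold only in that they stayed uncalled. The 109 repeats of the members' median fold change moved by less than 0.12 on the log2 scale. That limit is the SD within groups of each array's median log2 intensity over the members. It is wide for this use, since the members' median deviation by array ran only from -0.07 (XX_InX 1) to 0.07 (XX_Paf 1). Over the settings the median fold change ran from -0.02 to 0.10 in XpO against XX_InX. In the difference it ran from -0.15 to -0.03. Every reported median was smaller than the limit, so the limit does not show that its sign or size held. Some signs turned when single arrays were left out, as given above. The smallest adjusted p of any member was 0.0975, for Pdia3 in XX_Paf against XX_InX without XX_InX 19. The counts over all probe sets moved more, from 1 in XO against XX, 2 within the Paf cross, 1 within the In(X) cross, 1 between the XO groups, 2 in the test of the difference and 7 between the XX groups. With no filter on dim probe sets they were 4, 4, 6, 3, 4 and 17 in this order. With the filter at the 50th percentile the difference had 1, and with no intensity trend it had 0 and XX_Paf against XX_InX had 2. XX_Paf against XX_InX fitted on its own arrays had 35. With the replicate block in the Paf cross only replicates 1 and 2 of XmO and XX_Paf carry weight. XmO against XX_Paf then had 1 and the difference 0, and the members' median in XmO against XX_Paf was -0.03. Leaving out 1 array gave 1 to 3, 2 to 4, 1 to 4, 1 to 7, 0 to 4, and 2 to 17 in the same order. Where that left 1 array in a group, it was assumed to vary like the other groups. With 2 or 3 arrays a group, the precision is limited by their number, and 7 members had no array above background.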
